A study of Cervus nippon with 40 samples.

Results

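The testes of Sika Deer were examined by their microRNA (miRNA) profile, which was set against the profiles of 9 other organs. The testes libraries were those whose labels give testes as the tissue, 4 of the 40 libraries of the series, and the other 36 came from adrenal, antler, brain, heart, kidney, liver, lung, skeletal muscle and spleen. All deer were males of the breed Shuangyang. Each organ gave 1 library at each of 4 stages of life: juvenile deer were 1 year old, adolescence deer 3, adult deer 5 and aged deer 10. RNA of 3 deer was pooled in each library, the same 3 deer gave all organs of a stage, and different deer gave the other stages. No library was repeated, so the spread between deer or between repeat libraries was not measured, and a mean ± SD over the 4 testes libraries holds the differences between stages.

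miRNAs are short RNAs that pair with messenger RNAs and lower their translation or stability. The testis holds germ cells, which start meiosis and make sperm from puberty on, together with Sertoli cells, Leydig cells, smooth muscle-like cells around the tubules and vessels. The miR-424, miR-503, miR-542 and miR-450 genes lie close together on the mammalian X chromosome, the miR-34 and miR-449 family is known from meiotic and later male germ cells, and miR-202 is known from gonads. Whole organs were sequenced here, so fewer cells of a type and less miRNA per cell cannot be told apart.

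Values were the reads of a name per 1000000 miRNA reads of its library (RPM), in which a name rises when another takes fewer reads. The juvenile testes library held 535668 miRNA reads, against 67231 in adolescence, 97018 in adult and 41866 in aged testes, while the other 36 libraries held 214165 to 7759033 (median 824503). These totals, on which RPM rests, hold the reads of near-identical names under both names. Counted once, the testes libraries held 341776, 50010, 64935 and 28641 reads, so the totals were 1.57, 1.34, 1.49 and 1.46 times as large, against 1.01 to 1.75 times in the other libraries. One read therefore stood for 1.87 RPM in juvenile testes and for 14.9, 10.3 and 23.9 RPM in the later libraries in that order. A name with 0 reads could still be at up to 5.6, 44.6, 30.9 and 71.7 RPM, the values of 3 reads. These limits cover counting error only. Development stage, deer and depth changed together between juvenile and later testes and cannot be told apart. Known names were those of the bovine set, 305 in the series after names listed in antler alone were set aside. Of these, 198 had reads in testes, 92 in all 4 testes libraries and 48 with at least 10 reads in each. The juvenile library listed 183 names and the later ones 137, 120 and 100. Among the 198 names, 43 had reads in the juvenile testes library and in no later one, at most 8 each, and 15 had reads in later libraries alone, at most 7 each.

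A few names held most of the testes miRNA reads. The 10 most abundant names held 87.9% of known miRNA reads in juvenile, 82.6% in adolescence, 85.7% in adult and 82.8% in aged testes, where the other libraries ran from 80.4% to 99.6% with a median of 90.5%. The most abundant name was miR-199a-3p in juvenile testes and let-7b in the 3 later libraries. let-7b, a member of the let-7 family that rises as animal tissues mature, was at 106094, 107317, 246222 and 239884 RPM from juvenile to aged, with 174879 ± 78765 RPM as mean ± SD (n = 4). Adult and aged testes were higher than the other 2, and all 4 lay within the range of the other organs, 1066 to 416330 RPM. miR-199a-3p and miR-199a-5p, the strands of a precursor known from mesenchymal cells, were also among the leading names. miR-199a-3p was at 154476, 88545, 61143 and 56991 RPM. miR-199a-5p was at 80193, 69864, 28706 and 48273 RPM. Both were highest in juvenile testes. miR-145, known from smooth muscle, was at 34144, 74103, 105877 and 66020 RPM and was lowest in juvenile testes.

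Other abundant names differed strongly between the 4 libraries. miR-26a was at 99250, 48490, 13987 and 8599 RPM, highest in juvenile and lowest in aged testes. miR-7, known from neuroendocrine cells, was at 10609, 85407, 11699 and 16242 RPM, so that the adolescence library stood above the other 3. miR-1, the striated muscle miRNA, was at 3390, 48579, 8895 and 13997 RPM, again with adolescence above the rest. miR-30c was steadier, at 29395, 49055, 40724 and 56991 RPM, and let-7c ran from 18898 RPM in juvenile to 31266 RPM in aged testes. let-7a-5p ran from 7042 to 11202 RPM and miR-186 from 8668 to 20392 RPM. miR-2284x, of a miRNA family known from ruminants, was at 11944, 18578, 27211 and 19109 RPM and was above all 9 other organs of the same stage each time, as were 3 of the 124 tested names in all (2.42%). The files list near-identical names side by side: miR-3596 had the reads of let-7b in all 40 libraries, and miR-26c and miR-3604 differed from miR-26a and miR-199a-3p by 2 and 7 reads in their sums over the 4 testes libraries. Such pairs were counted once in the shares above and named once here.

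**Figure D1:**
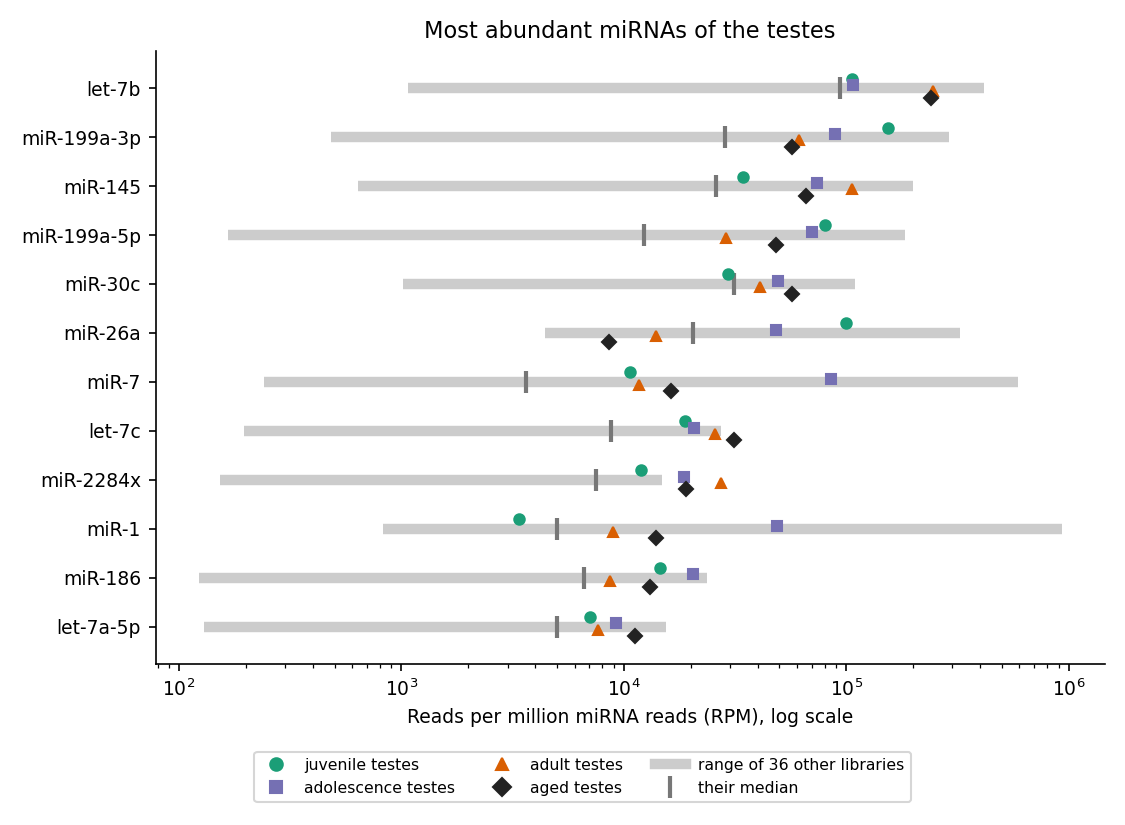
RPM (log scale) of the 12 most abundant miRNAs of testes, near-identical names counted once. Coloured symbols are the 4 testes libraries, grey bars the range of the 36 other libraries and grey ticks their median. For miR-2284x the 3 later testes libraries lie beyond the grey range, while miR-26a spans 8599 to 99250 RPM over the testes stages.

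Likeness between libraries was described by Pearson's r over the 124 names that reached 10 reads in 4 or more libraries, on log2(RPM + 1) after scaling by trimmed means (TMM). Adult and aged testes were the most alike pair of testes libraries (r = 0.94), and juvenile and aged testes the least (r = 0.83). The juvenile library was about as close to juvenile adrenal (r = 0.92) as to adolescence testes (r = 0.92). For adult testes the nearest library of another organ was aged lung (r = 0.91), below its r with adolescence testes (0.92) and aged testes. Heart, brain and skeletal muscle were least like juvenile testes, with mean r of 0.70, 0.71 and 0.70 over 4 stages. The points share depth within a library, and the shallow testes libraries hold more names at 0.

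The comparison of testes with the mean of the other 9 organs asked which miRNAs mark this organ. It was fitted with limma over all 40 libraries with terms for organ and stage, and a name was called at an adjusted p (Benjamini-Hochberg) below 0.01 and an absolute log2 difference above 1. Of 124 names tested, 22 were called (17.7%), 6 higher in testes (4.84%) and 16 lower (12.9%). miR-424-5p had the largest difference upward and miR-378 the largest downward. Comparisons at the same stage are given below in RPM before TMM scaling, not on the scale of this fit. The TMM factors, by which RPM was divided, were 2.25, 4.76, 1.88 and 3.09 in testes from juvenile to aged. Of the 124 names, 3 met the minimum of reads only through testes, and 1 of them, miR-450b, is among the 6 higher calls. The median log2 difference over all tested names was -0.46, and it was 0.90 when RPM was scaled to total reads alone, where 41 names were called higher and 10 lower. The edgeR quasi-likelihood test on recovered reads called 10 higher and 7 lower. Without the adult libraries 12 names were called (8 lower), without the adolescence libraries 9 were called lower, and without the aged libraries 11 were called higher. None of the 22 names changed its sign under any alternative.

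miR-424-5p, of the X-linked cluster and of the miR-15/16 seed group known to act on cell cycle genes, was the most testes-biased name. Its reads were 2331, 134, 27 and 8 from juvenile to aged, or 4352, 1993, 278 and 191 RPM. In the other 36 libraries the lowest value was 0, the median 1.66 and the highest 300 RPM, in adolescence kidney. Testes stood above every other organ of the same stage, 36 of 36 comparisons. Across stages the groups overlapped, as adult and aged testes lay below adolescence kidney. The fitted log2 difference was 5.82 ± 0.70 (SE, adjusted p = 1.88e-08, limma), and it ran from 4.02 to 7.25 over 13 alternatives, all of which called it. After testes the highest organ means were kidney at 154 RPM, adrenal at 87.4 and antler at 43.7, and all 4 libraries of each had reads. In the 4 lung libraries it had 0 reads, where 3 reads would be 2.87 to 4.61 RPM.

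Its neighbours in the cluster were scarcer. miR-450b had 62, 9, 0 and 1 reads, or 116, 134, 0 and 23.9 RPM, against 0 reads in 23 of the other 36 libraries and at most 38.1 RPM. It reached 10 reads in 3 libraries of other organs and in juvenile testes, so it met the minimum for testing (10 reads in 4 libraries) only through testes, where it is high. Its fitted log2 difference, 2.50 ± 0.59 (SE), is therefore given as a description. The adult library had no read. miR-542-5p had too few reads to be tested, with 18, 1, 2 and 1 reads, or 33.6, 14.9, 20.6 and 23.9 RPM. In the other organs it had 26 reads in 11 of 36 libraries and at most 8.17 RPM, in aged kidney. Juvenile testes, on 18 reads, lay above all of these. In the later testes libraries 1 read alone stands for 10.3 to 23.9 RPM. Any read therefore put them above that maximum, and their 1 or 2 reads do not measure a separation. miR-3601 had the same reads as miR-542-5p in all 40 libraries. miR-503-5p had 0 reads in testes and 4 reads in 3 other libraries. Of the 5 names of this cluster, 4 had testes reads, miR-3601 among them, and 2 were tested, miR-424-5p and miR-450b.

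miR-17-5p and miR-106a, of a family known from dividing cells, were also called higher. miR-17-5p was at 3224, 9951, 4875 and 7882 RPM on 1727, 669, 473 and 330 reads. The other libraries ran from 15.9 to 3932 RPM with a median of 773, and adolescence antler was the highest of them. In RPM testes were higher in 35 of 36 comparisons at the same stage, and juvenile antler, at 3325 RPM, was the exception. After TMM scaling, miR-17-5p was also lower in adolescence testes than in adolescence antler and adolescence lung. Its log2 difference was 1.8 ± 0.48 (SE, adjusted p = 0.00389, limma) and 13 of 14 alternatives called it. miR-106a, the X-linked relative, had 10, 9, 3 and 5 reads, or 18.7, 134, 30.9 and 119 RPM, against 0 to 35.4 RPM elsewhere. It was above every other organ at each stage, although juvenile and adult testes lay below adolescence kidney. The log2 difference of miR-106a was 2.63 ± 0.49 (SE, adjusted p = 6.88e-05, limma). Of the 6 listed names of the miR-17 family and the miR-17/92 cluster, the other 4 were at 0 to 2 reads in each testes library and were not tested.

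miR-1388-5p and miR-199a-5p completed the higher group. miR-1388-5p had 748, 64, 20 and 6 reads, or 1396, 952, 206 and 143 RPM, highest in juvenile testes. The other 36 libraries ran from 1.49 to 807 RPM with a median of 25.5. Spleen had the next highest organ mean, 364 RPM against 674 ± 605 RPM (SD, n = 4) in testes. At the same stage, miR-1388-5p was higher in testes than in each other organ, except for aged spleen (337 reads, 807 RPM). Its log2 difference was 2.27 ± 0.53 (SE, adjusted p = 0.00153, limma) with 11 of 13 alternatives calling it. In RPM, miR-199a-5p was above the same-stage library in 32 of 36 comparisons. The 4 exceptions were the antler libraries, whose mean was 163407 RPM against 56759 ± 22948 RPM (SD, n = 4) in testes. After TMM scaling, miR-199a-5p was also lower in adolescence testes than in adolescence lung. Its log2 difference was 1.32 ± 0.33 (SE, adjusted p = 0.00207, limma) and all 14 alternatives called it. The mesenchymal list of miR-199 and miR-214 names had 6 tested members, of which miR-199a-5p was the 1 called. All 6 differences were positive, with a median of 0.65, against 42 of 124 positive over all tested names. miR-3604, the near-identical name of miR-199a-3p, is among the 6.

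**Figure D2:**
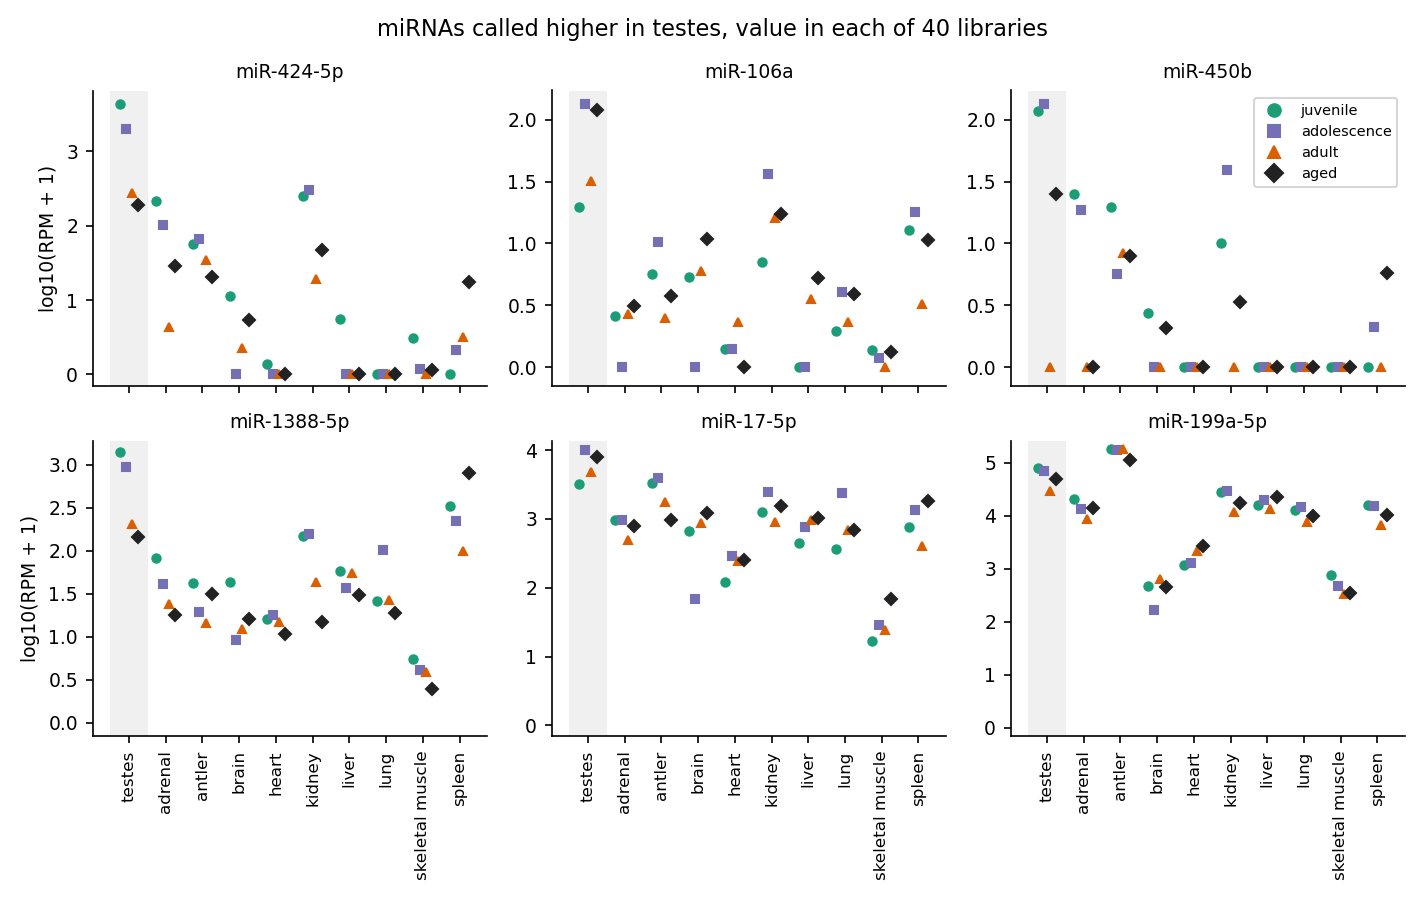
log10(RPM + 1) of the 6 miRNAs called higher in testes in each of the 40 libraries, by organ, with colours and symbols for the stage. The shaded column is testes: all 4 values of miR-424-5p and miR-106a exceed the other organs of the same stage, miR-450b is at 0 in the adult library, and antler is above testes for miR-199a-5p.

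The lower group held miR-378 and its relatives, miR-486, and 2 of the 3 miR-133 names. miR-378, an intronic miRNA of the PGC-1β gene known from oxidative metabolism, was at 1852, 4150, 3061 and 3440 RPM on 992, 279, 297 and 144 reads. The other libraries ran from 2001 to 203254 RPM with a median of 20962, and testes were higher in 2 of 36 comparisons at the same stage. The log2 difference of miR-378 was -4.35 ± 0.29 (SE, adjusted p = 1.25e-14, limma). Brain was the organ nearest to testes, with a mean of 2572 RPM against 3126 ± 962 RPM (SD, n = 4). The related miR-378c had 85, 35, 25 and 10 reads and a log2 difference of -3.66 ± 0.30 (SE). miR-378d with 9, 7, 0 and 0 reads differed by -4.11 ± 0.44, and miR-378b with 5, 2, 1 and 0 reads by -3.68 ± 0.49. All 4 names were called under every alternative in which they were tested. miR-486, known from red blood cells and muscle, was at 441, 982, 1031 and 788 RPM against 608 to 40670 RPM elsewhere. Its log2 difference was -3.92 ± 0.34 (SE, adjusted p = 4.36e-12, limma), and all 14 alternatives called it. Adrenal was the organ nearest to testes in miR-486, with a mean of 907 RPM against 810 ± 268 RPM (SD, n = 4). The adolescence and adult testes libraries lay above the adrenal ones of their stage, and the juvenile and aged ones below.

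miR-133a and miR-133c, which act in striated muscle, were also called lower. For miR-133a the organ means were 137578 RPM in heart and 19819 RPM in skeletal muscle, and no other organ mean exceeded 3981 RPM. Their log2 differences were -1.99 ± 0.49 and -2.02 ± 0.48 (SE), and 5 of 14 and 7 of 13 alternatives called them. miR-133c rested on 1, 3, 1 and 2 reads in testes. Its testes mean of 26.1 RPM was exceeded by the means of heart, skeletal muscle and spleen alone. miR-133a was at 80.3, 2677, 1969 and 7142 RPM in testes, while the median of the other libraries was 1031 RPM, so the 3 later libraries lay above that median. Over all 124 tested names 82 differences were negative and 16 names were called lower (12.9%). The striated muscle list had 6 tested members, all with a negative difference and a median of -1.76, and 3 of them were called lower. Its members miR-206, miR-208a, miR-208b and miR-499 had 0 reads in all 4 testes libraries. Of these, miR-208b is among the 6 tested, so its difference rests on no read in testes. miR-140, known from cartilage, had 60, 3, 1 and 1 reads, or 112, 44.6, 10.3 and 23.9 RPM, and a log2 difference of -1.94 ± 0.36 (SE, adjusted p = 7.02e-05, limma). Antler had its highest mean, 354 RPM.

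The remaining lower calls also rested on few reads or changed with the method. miR-490, hosted by the M2 muscarinic receptor gene, had 18, 1, 2 and 2 reads and a log2 difference of -2.67 ± 0.43 (SE, adjusted p = 5.71e-06, limma). miR-1468 had 6, 0, 1 and 0 reads, miR-671 had 10, 0, 0 and 1, miR-95 had 19, 2, 1 and 0, and miR-1307 had 1, 0, 0 and 0. Their differences lay between -1.73 and -2.41. For miR-1307 the other libraries ran from 0 to 35.9 RPM, while 0 reads allow 44.6, 30.9 and 71.7 RPM in later testes. Its 0 reads there do not place testes below most of those libraries. miR-412 had 0 reads in testes, which is no measured difference from the median of 1.54 RPM elsewhere at these depths, although adrenal had a mean of 64.1 RPM. Of the 16 lower calls, 9 had under 50 reads over the 4 testes libraries, 8 had 0 reads in at least 1 of them, and edgeR called 7: the 4 names of the miR-378 group, miR-486, miR-133c and miR-140. miR-423-5p, with 144, 4, 13 and 0 reads and a difference of -2.21 ± 0.63 (SE), was called under none of 13 alternatives. miR-409b, at 5070, 1101, 433 and 1075 RPM, was called lower (-1.82 ± 0.51, SE) beside an adrenal mean of 56473 RPM, and 3 of 14 alternatives called it.

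**Figure D3:**
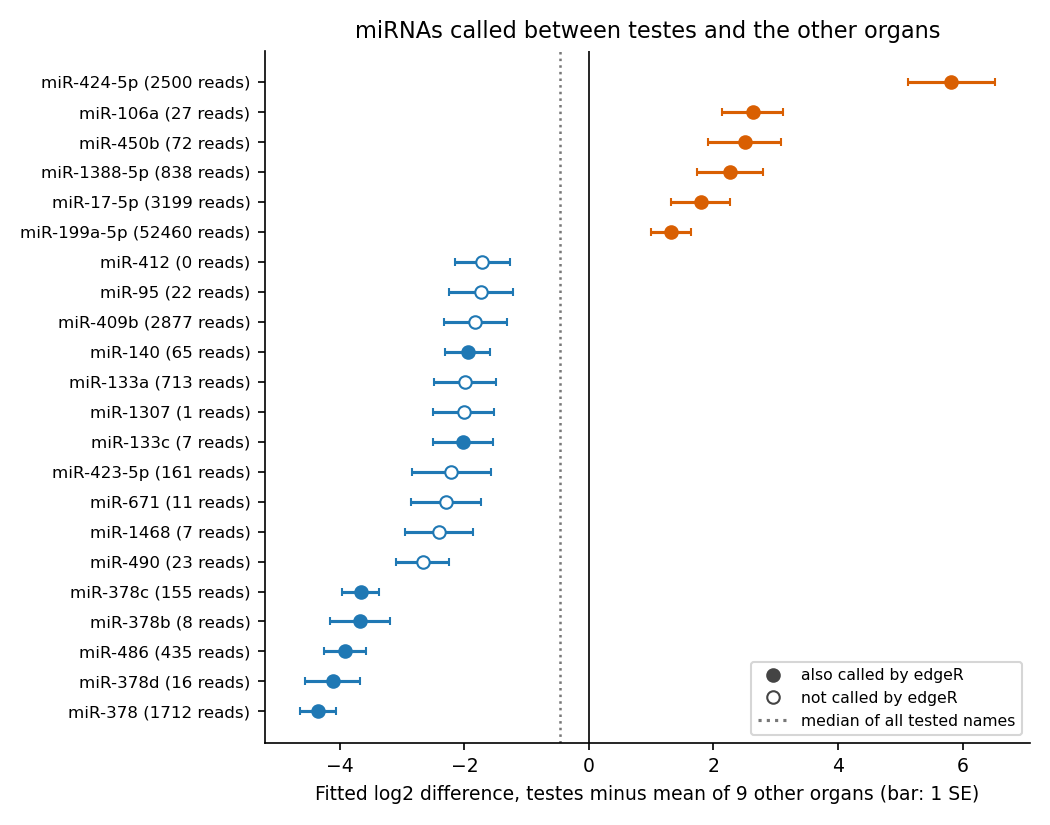
Fitted log2 difference between testes and the mean of the other 9 organs for the 22 called miRNAs, with bars of 1 SE and the reads summed over 4 testes libraries beside each name. Filled symbols were also called by edgeR on recovered reads, all 6 higher and 7 of 16 lower names; the dotted line is the median of all 124 tested names, -0.46.

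Marker names of other tissues were set beside these differences. Of the 2 epithelial names, miR-200b and miR-429, neither had a read in testes. The blood cell names miR-451 and miR-146a had 0 reads, miR-150 had 5, 4, 2 and 1, and miR-142-5p had 94, 38, 3 and 0. The summed blood cell list ran from 633 to 1636 RPM in testes and from 653 to 40693 RPM in the other libraries. The endothelial miR-126-3p had 2, 2, 2 and 0 reads. Of 6 neuronal names, miR-124a alone had testes reads, 20, 6, 15 and 15, or 37.3, 89.2, 155 and 358 RPM. Outside brain and adrenal it had 0 to 11 reads in 28 libraries, and its testes log2 difference of 2.25 ± 0.74 (SE) had an adjusted p of 0.0173 in limma and 0.00581 in edgeR, which called it. The liver and kidney miR-194 had 0 reads, while miR-192 was at 3057 to 12420 RPM. miR-143, the partner of miR-145 in smooth muscle, had 1, 1, 0 and 0 reads.

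Germ cell and gonad names were scarce. miR-202 had 7, 1, 0 and 0 reads in testes and 1 read in the other 36 libraries, in adolescence adrenal. miR-449a had 6 reads, or 89.2 RPM, in adolescence testes and 0 in the other testes libraries, with 1 read elsewhere, in adolescence lung. miR-34a and miR-449c had no testes reads, and 7 and 2 reads in other organs. miR-545-3p had 2 reads, both in adolescence testes, and was read in no other library of the series. At 0 reads adult and aged testes allow 30.9 and 71.7 RPM, so a lower level of miR-202 there than its 13.1 RPM in juvenile testes was not detectable at this depth. The 6 adolescence reads of miR-449a stand against a limit of 5.6 RPM in juvenile testes.

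Other groups showed no call or few calls. The let-7 family had 7 tested names, none called, with a median log2 difference of -0.46, the same as over all names. The miR-30 family had 4 tested names with a median of -0.83 and none called. The ruminant miR-2284 and miR-2285 family had 41 listed names, 32 with testes reads and 7 tested, with a median of -0.24 and none called. Near-identical names stand under both names in these counts: let-7b with miR-3596, and miR-2284y with miR-2285u, each at 182 testes reads. Among the other X-linked names 8 were tested, 1 called higher (miR-106a) and 1 lower (miR-1468), with a median of -0.07. Of the imprinted DLK1-DIO3 locus, whose miRNAs are known from brain and fetal tissue, 13 of 31 names had testes reads. On this list 9 names were tested and 2 were called lower, with a median of -1.41. The 2 calls were miR-412, with 0 reads in testes, and miR-409b, called under 3 of 14 alternatives. miR-541, also at 0 reads in testes, is among the 9. Over all 124 tested names 6 were called higher (4.84%) and 16 lower (12.9%). The Hox-cluster names miR-196a and miR-196b had positive differences of 1.77 ± 0.55 and 0.54 ± 0.59 (SE) that limma did not call (adjusted p = 0.0126 and 0.537). edgeR called both higher, with 2.30 and 2.17.

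The change after the juvenile stage was examined in 2 ways. In the first, the mean of the adolescence, adult and aged testes libraries was set against the juvenile library in a limma fit that takes its spread from all organs, so the lone juvenile library was assumed to vary like the others. Of 124 names, 1 was called, higher (0.806%), and none lower. At an unadjusted p below 0.05 there were 28 names. edgeR called 0 (24 at an unadjusted p below 0.05) and DESeq2 called 1. Without the aged testes library no name was called, without the adult one 3 were, and without the adolescence one 2 were.

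The called name was miR-133a. Its reads were 43, 180, 191 and 299, although the juvenile library was the deepest, and its values were 80.3, 2677, 1969 and 7142 RPM. All 3 later libraries lay above the juvenile one. The log2 difference was 4.92 ± 0.90 (SE, adjusted p = 0.00113, limma), and from 4.39 to 5.45 over the alternatives. edgeR gave an adjusted p of 0.0437 for it, and 0.010 came from limma without the aged library. In the other 9 organs the same difference ran from -0.61 to 1.91 with a mean of 0.92, and 8 of 9 were positive. The testes difference exceeded that mean by 4.0 ± 0.95 (SE, adjusted p = 0.0314, limma), which was not called. DESeq2 called this excess, at 4.10. So did limma over names with a mean level of at least 10 reads in the smallest library, at 4.58. The other alternatives did not call it. Other members of the striated muscle list pointed the same way as miR-133a without being called. miR-133b had 2, 5, 9 and 7 reads and a log2 difference of 3.76 ± 1.04 (SE, adjusted p = 0.0523), miR-133c 2.50 ± 1.04 (adjusted p = 0.169) and miR-1 2.0 ± 1.24 (adjusted p = 0.330), all from limma. The 6 tested names had a median of 2.25, against -0.46 over all tested names. miR-208b, with 0 reads in every testes library, is among the 6, so its fitted value is no change seen in testes. In the 28 libraries outside heart and skeletal muscle, miR-1 had 688 to 21740 reads and miR-133a 65 to 5118, against 586 to 3266 and 43 to 299 in testes. The muscle names miR-206, miR-208a, miR-208b and miR-499, at 0 reads in testes, were scarce in muscle itself. Their means were 1.42 RPM for miR-206 in skeletal muscle, and 3.69, 42.7 and 0.622 RPM for miR-208a, miR-208b and miR-499 in heart, beside 10.3 to 23.9 RPM for 1 read in later testes. Their absence says nothing of a muscle share. The part of striated muscle or of reads from other libraries in the testes values was not tested.

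The other large differences by fitted size were not called. The 10 largest positive and the 10 largest negative differences were chosen by size alone, among 99 tested names with at least 10 reads in a testes library. A name could meet this minimum through the stage where it was high, as miR-1260b and miR-4286 did through later libraries. After miR-133a the largest positive ones were miR-1260b with 2, 5, 13 and 14 reads (4.26 ± 1.49, SE), miR-2898 with 171, 165, 486 and 94 reads (2.81 ± 1.44) and miR-4286 with 2, 2, 14 and 1 reads (2.68 ± 1.16). miR-2478, miR-7859, miR-22-3p with its second name miR-3600, miR-1 and miR-22-5p followed, at 1.93 to 2.47. miR-1260b, miR-2478 and miR-4286 are among names that may be fragments of other RNAs. That list had 8 tested names, 5 of them with a positive difference, against 53 of 124 over all tested names. miR-22-3p, a widely expressed miRNA, was at 1798, 11319, 8885 and 9960 RPM, and the 3 later libraries lay close together above the juvenile one (2.05 ± 0.88, SE, adjusted p = 0.169, limma).

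The largest negative differences were in names that had 26 or more reads in juvenile testes and fewer later. miR-493, miR-196b, miR-532, miR-708, miR-450b and miR-134 reached 10 reads in the juvenile testes library alone. They could be chosen only through the library where they were high. That library was also the deepest, so fewer reads later do not by themselves show a lower level, and these differences are a description. miR-493, of the DLK1-DIO3 locus, had 55, 0, 1 and 0 reads and a log2 difference of -4.64 ± 1.17 (SE, adjusted p = 0.0296, limma). miR-196b had 191, 1, 6 and 1 reads, or 357, 14.9, 61.8 and 23.9 RPM, and differed by -3.90 ± 1.15 (SE, adjusted p = 0.0567, limma). In the other organs miR-196b had a mean difference of 0.73 with 7 of 9 positive, and the gap between testes and that mean was -4.63 ± 1.22 (SE, adjusted p = 0.0469, limma), not called. miR-424-5p had a lower RPM at each successive stage and a fitted difference of -3.61 ± 1.40 (SE, adjusted p = 0.15, limma). In the other 9 organs its difference had a mean of -1.44 and was positive in 1. miR-532, miR-2285f, miR-423-5p, miR-708, miR-409b, miR-450b and miR-134 had differences between -2.91 and -3.80, with adjusted p of 0.0776 or more. Over the 124 names the gap between the testes difference and the mean of the other organs gave no call, with 16 names at an unadjusted p below 0.05; edgeR gave 0 (10 at that level) and DESeq2 2.

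**Figure D4:**
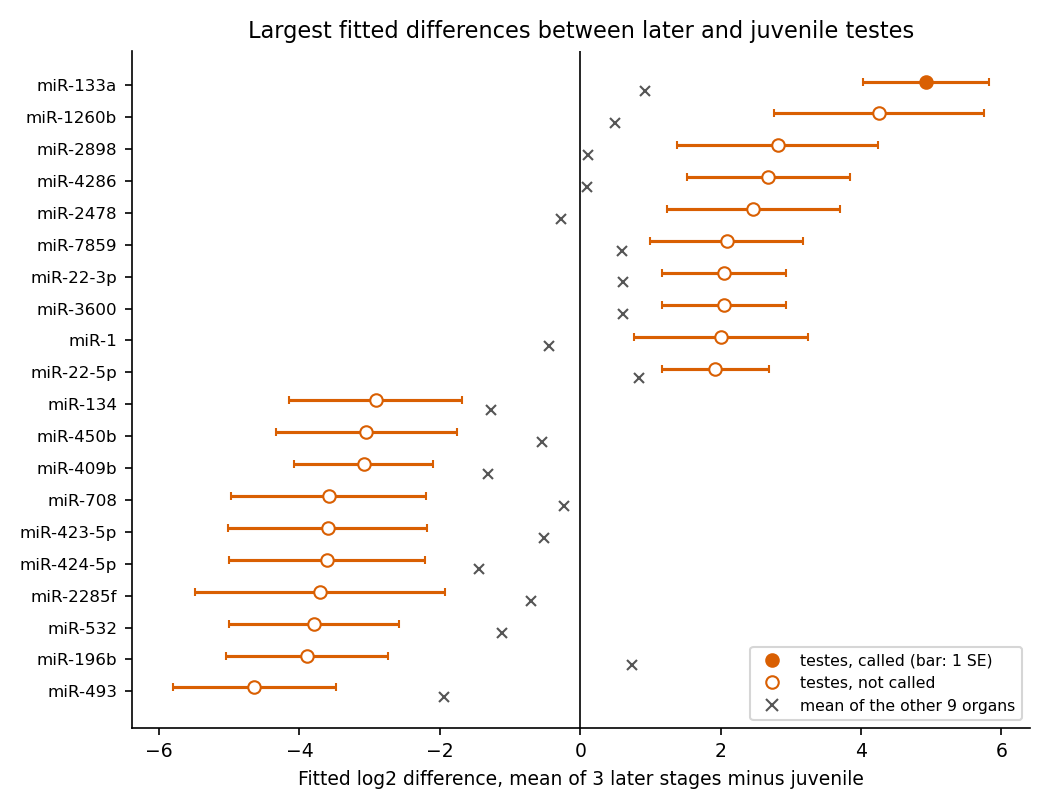
Fitted log2 difference between the mean of 3 later testes libraries and the juvenile one for the 10 largest positive and 10 largest negative differences, chosen by size, with bars of 1 SE. The filled symbol, miR-133a at 4.92, is the only call, and grey crosses give the mean difference of the other 9 organs, which is 0.92 for miR-133a and 0.73 for miR-196b.

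Grouped by locus and role, the differences between later and juvenile testes ran both ways, and none of the names below was called. The DLK1-DIO3 list had 9 tested names, 7 with a negative difference and 2, miR-412 and miR-541, at 0 reads in every testes library. It had a median of -2.11 against -0.46 over all names. Its median gap to the mean difference of the other 9 organs was -0.47, near the -0.41 over all names. Within it miR-409b was at 5070, 1101, 433 and 1075 RPM and miR-409a at 1465, 952, 216 and 454 RPM, juvenile testes being highest for both. The mean difference of the other 9 organs was also negative for miR-409b (-1.31), with 2 of 9 positive. The mesenchymal list had 6 of 6 negative with a median of -1.42, and miR-199c, at 6153, 2975, 1948 and 1553 RPM, had a lower RPM at each successive stage (-1.99 ± 0.87, SE, adjusted p = 0.169, limma). The X-linked cluster had 2 of 2 negative. Of these, miR-450b met the minimum for testing only through juvenile testes, where it was high, so its sign is a description. The other X-linked names had 7 of 8 negative with a median of -1.74. Over all 124 tested names 71 differences were negative and 53 positive. The let-7 family had 4 of 7 positive and a median of 0.01, and the ruminant miR-2284 and miR-2285 family 5 of 7 with a median of 0.35. Both counts hold a near-identical pair under both names, let-7b with miR-3596 and miR-2284y with miR-2285u. Among the 124 tested names, 44 had all 3 later libraries above the juvenile one in RPM (35.5%) and 30 had all 3 below (24.2%).

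**Figure D5:**
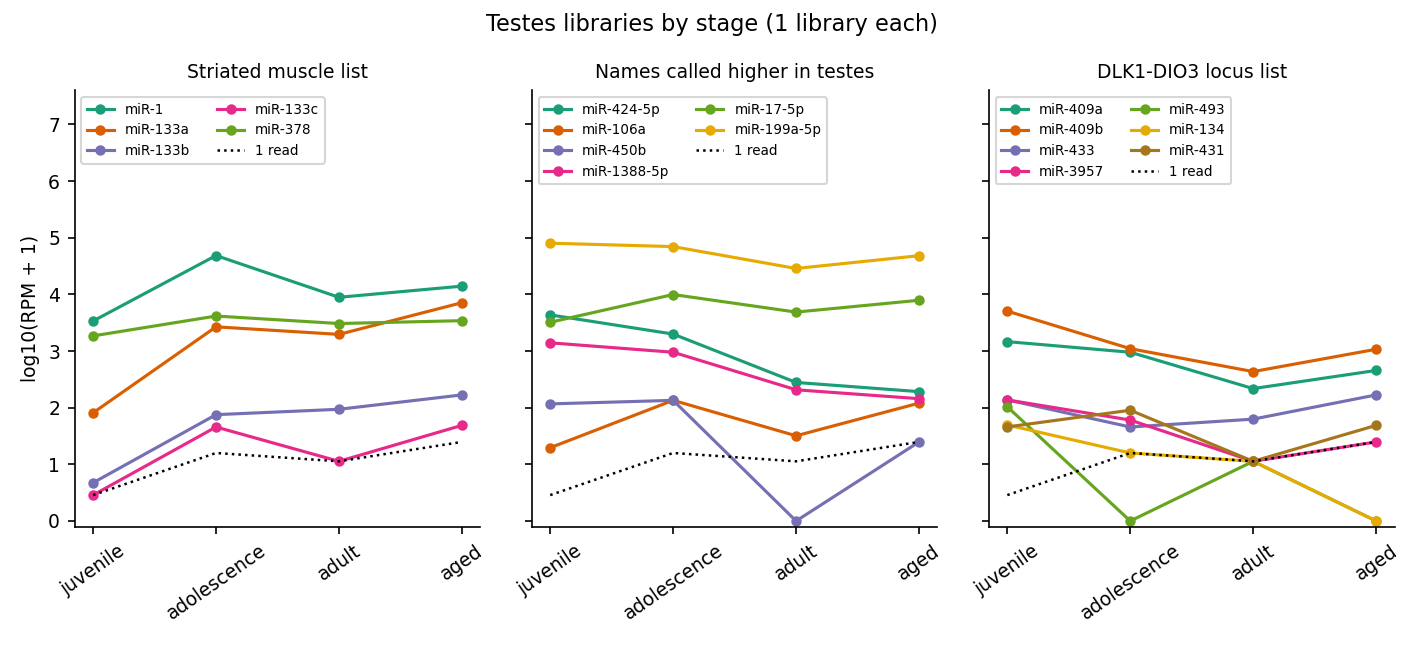
log10(RPM + 1) in the 4 testes libraries for the striated muscle names with testes reads (left), the 6 names called higher in testes (middle) and the 7 tested DLK1-DIO3 names with testes reads (right). The dotted line is the value of 1 read, which is higher in the 3 shallow later libraries: miR-133a rises from 80.3 to 7142 RPM, while miR-3957 and miR-134 end on or below 1 read.

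In the second way, the juvenile library was compared with each later library by the random sampling model of DEGseq, which takes the sampling of reads as the only spread and so compares libraries, not stages. The 3 comparisons share the juvenile library. Against adolescence 57 of 190 names were called (30.0%), 40 higher (21.1%) and 17 lower (8.95%), with the q value under 0.01 and the log2 difference beyond 1 either way. Against adult testes 57 of 190 were called (30.0%), 25 higher (13.2%) and 32 lower (16.8%). Against aged testes 59 of 186 were called (31.7%), 31 higher (16.7%) and 28 lower (15.1%). The split depended on the scaling. With TMM factors in the library sizes, 14 were higher and 34 lower in adolescence, 29 and 28 in adult, and 21 and 34 in aged testes. Of the higher calls, 5 in adolescence and 4 in aged testes had under 4 reads in the later library, and an exact binomial test called 30, 24 and 22 names higher and 9, 22 and 18 lower in that order.

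Values of the members in the 3 comparisons ran as follows, on the log2 scale of RPM. miR-133a was higher by 5.06, 4.62 and 6.48 in adolescence, adult and aged testes, and miR-1 by 3.84, 1.39 and 2.05, all called. Of the 5 striated muscle names with testes reads, 5, 3 and 4 were called higher. Over all names 40 of 190, 25 of 190 and 31 of 186 were called higher. The adolescence and aged calls of miR-133c rested on 3 and 2 reads in the later library. miR-7 was called in adolescence alone, at 3.01, against 0.14 and 0.61 in the other 2. Its adolescence reads, 5742, exceeded the 5683 of the far deeper juvenile library, and in the 28 libraries outside adrenal and brain it had 255 to 9469 reads. miR-26a differed by -1.03, -2.83 and -3.53 and was called lower each time. miR-424-5p differed by -1.13, -3.97 and -4.51, also called each time. miR-1388-5p differed by -0.55, -2.76 and -3.28, with the last 2 called. miR-145 differed by 1.12, 1.63 and 0.95, the first 2 called, and let-7b by 0.02, 1.21 and 1.18, the last 2 called. miR-449a, with 6 reads against 0, was called in adolescence, and miR-545-3p was called there on 2 reads against 0.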

How the data were processed

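Small RNA was sequenced on Illumina instruments from 10 organs at 4 stages. The authors trimmed adapters, dropped short reads and other RNA classes, matched reads to miRBase 22.0 and to predictions of miRDeep 2.0.5 with the bovine genome as reference, and deposited RPM values, whose header reads tpm though no length enters. The labels' processing notes also name CASAVA, bcl2fastq 1.8.4 and Bowtie. A name without reads is not listed and was set to 0. All 7982 values were within 0.01 of whole reads (largest distance 0.000243), and the reads recovered in this way entered the count tests.

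Members and lists were chosen with earlier results of these data known. Named were the 15 most abundant testes names, all calls between testes and the other organs, all calls and the 10 largest differences each way after juvenile, and the listed members. No file with miRNA sequences was used here. Names were tested when they reached 10 reads in 4 or more libraries, 124 of 305. For antler the name miR-148c stood for miR-2957, since the first is listed in 4 antler libraries and 0 others and the second in 0 antler libraries and 35 others. limma 3.58.1 (trend) was fitted in R 4.3.3 to log2(RPM + 1) after TMM scaling of edgeR 4.0.16 over the tested names. The stage number is the replicate number, and the same deer gave all organs of a stage, so stage was kept as a block. For scarce names a difference on this scale can be smaller or larger than that of edgeR. edgeR gave 4.59 for miR-450b, above its limma value, and -1.15 for miR-423-5p, a smaller drop than in limma. The lower calls need not be cautious estimates. A name at 10 reads has an SD of 0.316 of its value from sampling alone. Comparisons of single libraries used the DEGseq model, with 0.5 in place of 0 reads, in Python 3.11.15. The models were tested on simulated data. Alternatives were scaling to total reads, size factors of DESeq2 1.42.0, edgeR and DESeq2 tests, no minimum of reads, a pseudocount of 10 RPM, near-identical names counted once, no block, and each stage or testes library left out. TMM factors over all names and a stricter minimum were chosen after seeing the data.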

Additional observations from a re-analysis of the deposited data

Results flagged for a closer look

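Among 49 named miRNAs, 2 had a testes library far from the other 3 by Dixon's limit for 4 samples, which chance gives in about 1 of 20. On log2(RPM + 1) after TMM scaling the gap over the range was 0.927 for miR-199a-5p, with juvenile testes apart. In RPM it was 0.38, and in log2(RPM + 1) without TMM 0.506, neither past the limit. On both of these scales adult testes, not juvenile testes, had the larger gap. The flag of juvenile testes therefore rests on the scaling. The gap over the range was 1.0 on all 3 scales for miR-1307, whose only testes read was in the juvenile library.

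Predicted miRNAs, which have numbers in place of names, stand outside the comparisons above. The predicted novel_205 had 0, 17, 33 and 26 reads from juvenile to aged testes and a mean of 304 RPM, against 2 reads in 32 libraries of the other organs without antler, whose numbers name other sequences. novel_203 had 0, 6, 12 and 5 reads (mean 83.1 RPM) and novel_109 had 0, 3, 13 and 5 reads (mean 74.5 RPM), and neither had a read in the 32 libraries. All 3 were at 0 reads in the juvenile library, the deepest of the 4.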

How the results depend on the processing

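Over the named miRNAs, 688 of the values under alternatives kept their sign and side of the limits, 79 fell inside the limits, 18 passed them and 0 changed sign. Of the 22 names called between testes and the other organs, 9 were called under every alternative in which they were tested. Between testes and the other organs, scaling to total miRNA reads gave 51 calls (41 higher, 10 lower) in place of 22. Higher calls, 6 at first, were 10 with DESeq2 size factors, 10 with edgeR (7 lower), 11 with DESeq2, 13 with no minimum of reads, 10 with near-identical names counted once and 10 with TMM factors over all names. A mean level of at least 10 reads in the smallest library left 10 calls, 4 of them lower. Leaving out each stage in turn gave 12 to 22 calls, 4 to 11 higher and 8 to 14 lower. Without the replicate block 19 names were called, 6 higher and 13 lower.

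For later against juvenile testes, with 1 call at first, scaling to total reads, DESeq2 size factors and TMM factors over all names gave 2 each (1 lower), edgeR 0 (0 higher), no minimum 14 (13 lower), a pseudocount of 10 RPM 5 (4 lower) and near-identical names counted once 3 (2 higher, 1 lower). Leaving out a later testes library gave 0 to 3 calls, 0 to 2 higher and 0 to 2 lower, and no replicate block gave 1. For the gap to the other organs, with 0 calls, DESeq2 gave 2 (1 higher, 1 lower), no minimum 9 (9 lower), a pseudocount of 10 RPM 1 (1 lower), the stricter minimum 1 (1 higher), leaving out a testes library 0 to 1 (0 to 1 lower), and no replicate block 0. In the comparisons of single libraries, TMM sizes gave 14 higher and 34 lower in adolescence, and the exact binomial test 9 lower in adolescence and 18 in aged testes. The causes were not tested. Depth limited the later testes libraries most, where 3 reads are 30.9 to 71.7 RPM.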
